A study of Mus musculus with 4 samples.

Results

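The 10 genes described here are transcription regulators tied to the switch from neuron to glia production. With earlier results of these data known, they were chosen by name. They are the nuclear factor I genes Nfia, Nfib, Nfic and Nfix, the inhibitor of DNA binding genes Id1, Id2, Id3 and Id4, Stat3, and the zinc finger gene Zbtb20, out of 29224 genes in the deposited tables. The 4 RNA-seq libraries came from astrocytes taken from the mouse cerebral cortex at postnatal day 5 with magnetic beads against ACSA-1, an epitope of the glutamate transporter GLAST. Of these, 2 were from Ezh2 f/f mice, which carry floxed alleles of Ezh2, and 2 were from Ezh2 cKO mice, in which the same floxed alleles are combined with Aldh1l1-iCre. Ezh2 encodes the methyltransferase that places the repressive mark H3K27me3. Cre is made in cells that use the Aldh1l1 promoter, chiefly astrocytes. Whether other cells carried along by the beads kept Ezh2 was not measured. The methods name the C57BL/6J and ICR strains without giving the background of each library, and nothing states whether the 2 libraries of a group came from separate animals, so p-values here measure the spread between these samples, which may be technical.

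NFI proteins bind DNA as dimers on paired TTGGC elements and switch on glial genes such as Gfap, while Nfix and Nfib also act in the maturation of neurons and progenitors. ID proteins have a helix-loop-helix domain but no DNA-binding region. They tie up the E proteins that proneural factors need as partners, and their genes are classical targets of bone morphogenetic protein (BMP) signals through SMAD proteins. STAT3 is activated by the interleukin-6 (IL-6) family of cytokines through JAK kinases and acts on Gfap together with SMAD proteins. ZBTB20 is a repressor needed for hippocampal identity and known to promote astrocyte formation.

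Each library held between 16273308 and 17522152 reads counted on genes, and a count of 3 equalled 0.171 to 0.184 CPM (counts scaled to the library total, which elsewhere below was adjusted by TMM factors). The members had between 320 and 22139 counts in a library, so none lay near that floor. Ezh2 itself stood at 3.71 and 3.01 FPKM (fragments per kilobase of exon, scaled to library size) in Ezh2 f/f and at 1.82 and 1.47 FPKM in Ezh2 cKO, a fall of 1.11 on the log2 scale (SE 0.16, edgeR adjusted p = 3.26e-05). Of the 6 astrocyte markers, 5 rose and none fell, with summed levels of 76.3 to 77.5 FPKM in Ezh2 f/f and 323 to 369 FPKM in Ezh2 cKO. The astrocyte marker Aqp4 was low in the Ezh2 f/f libraries, at 0.751 and 0.513 FPKM. The 8 neuronal markers summed to 1998 to 2029 FPKM in Ezh2 f/f and 1752 to 1765 FPKM in Ezh2 cKO, and 5 of them rose and 1 fell. Tubb3, the one that fell, carried most of that sum, and the other 7 neuronal markers summed to 131 to 139 FPKM in the controls (Ezh2 f/f) and 542 to 545 FPKM in Ezh2 cKO, above the astrocyte markers in every library. These libraries therefore held much RNA of genes that mark neurons beside RNA of genes that mark astrocytes. Microglial markers rose in 5 of 5 cases (7.97 to 8.64 FPKM summed in Ezh2 f/f, 38.4 to 44.4 FPKM in Ezh2 cKO). Oligodendrocyte precursor markers rose in 4 of 4 (14.2 to 15.4 FPKM against 58.7 to 64.6 FPKM), as did 4 of 4 oligodendrocyte markers (7.77 to 9.42 FPKM against 75.4 to 84.7 FPKM). All 4 neural progenitor markers fell (37.1 to 42.2 FPKM against 22.4 to 24.2 FPKM), and all 5 cycling markers fell (13.8 to 14.0 FPKM against 6.79 to 7.42 FPKM). Endothelial markers gave 1 rise and 1 fall among 5 (93.5 to 98.5 FPKM against 89.8 to 103.5 FPKM), and mural markers gave 2 rises and 1 fall among 4 (27.6 to 28.4 FPKM against 51.2 to 55.6 FPKM). No marker was at 0 in any library. Rises and falls of markers are calls at edgeR adjusted p under 0.05. Of all 16793 genes tested, 68.4% were called in this way, 34.7% higher and 33.6% lower, so a call on a marker was common. In bulk samples, fewer cells of a type and less RNA per cell cannot be told apart.

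The members' own promoters were read for the elements that NFI, SMAD, STAT and bHLH proteins are known to bind. RefSeq promoters (build GRCm38.p6) matched 8 of the 10 members with 11 start sites, and the 250 bases before each start were searched on both strands. Among the ID genes, Id3 was called higher and Id2 and Id4 lower. The direction of Id4 depended on which Ezh2 f/f library was used, as given below. The windows of Id2, Id3 and Id4 are shown because of these calls, with the NFI element TTGGC in capitals. They lie at chr12:25096093-25096342 on the minus strand, chr4:136143572-136143821 on the plus strand and chr13:48260866-48261115 on the plus strand.
Id2: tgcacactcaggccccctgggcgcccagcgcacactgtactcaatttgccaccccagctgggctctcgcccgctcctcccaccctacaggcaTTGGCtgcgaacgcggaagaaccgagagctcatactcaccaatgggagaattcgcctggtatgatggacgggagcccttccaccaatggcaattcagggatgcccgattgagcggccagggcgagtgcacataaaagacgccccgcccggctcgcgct
Id3: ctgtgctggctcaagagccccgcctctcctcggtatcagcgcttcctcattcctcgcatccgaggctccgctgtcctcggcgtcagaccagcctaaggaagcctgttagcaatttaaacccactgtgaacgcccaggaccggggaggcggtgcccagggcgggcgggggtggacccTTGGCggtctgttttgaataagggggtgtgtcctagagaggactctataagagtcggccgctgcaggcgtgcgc
Id4: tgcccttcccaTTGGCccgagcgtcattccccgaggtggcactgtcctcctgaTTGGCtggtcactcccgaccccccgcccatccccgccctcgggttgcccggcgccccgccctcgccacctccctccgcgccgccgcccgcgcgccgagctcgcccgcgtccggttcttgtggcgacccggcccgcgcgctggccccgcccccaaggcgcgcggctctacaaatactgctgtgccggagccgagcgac
The window before the first of 4 listed Nfix starts, at chr8:84780083-84780332 on the minus strand, is shown because Nfix had the largest change of the members, with the GC-rich SMAD element GGCGCC in capitals.
Nfix: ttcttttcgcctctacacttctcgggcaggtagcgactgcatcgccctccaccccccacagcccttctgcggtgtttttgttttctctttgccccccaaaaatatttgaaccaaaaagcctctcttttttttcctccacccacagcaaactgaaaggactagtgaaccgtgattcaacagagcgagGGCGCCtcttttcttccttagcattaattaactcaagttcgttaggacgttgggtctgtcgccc
TTGGC was present in 6 of the 11 member windows and in 41.5% of all 32851 promoter windows of that length. GGCGCC was present in 3 member windows, those of Id2, Id4 and the first Nfix start, against 9.59% of all windows. Their GC contents were 62.8%, 75.6% and 49.2%, where the median over all windows was 52.4%. Of the 11 member windows, 4 belonged to Nfix. The STAT motif TTCNNNGAA was found before Nfic and the second Nfix start, 2 of 11 windows against 7.02% of all. The E box CANNTG, the site of the bHLH dimers that ID proteins prevent, was in 7 member windows against 66.2% of all. The full NFI palindrome, which holds TTGGC on both strands, was in 0 of the 11 windows and in 0.0365% of all. Id4 had the most CpG sites of the member windows (35, observed over expected 1.05) and Nfia had 1 (0.0798), where the median over all windows was 0.373. A match is only a string of letters, and binding was not measured here.

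The first question was how the level of each regulator compared between Ezh2 cKO and Ezh2 f/f. Id3 rose, Nfix, Nfib, Id2, Id4 and Stat3 fell, and Nfia, Nfic, Id1 and Zbtb20 did not pass the threshold (edgeR quasi-likelihood test, Benjamini-Hochberg adjusted p under 0.05 over 16793 genes). Thus 6 of the 10 members were called, or 60%, in a comparison that called 68.4% of all genes tested. Of these, Id4 had libraries that overlapped between groups. Without Ezh2 f/f replicate 2 the log2 fold change of Id4 was 0.08. Among all genes, 34.7% were called higher and 33.6% lower, against 1 and 5 of the 10 members. A change of at least 2-fold was called for Nfix and Id3 alone among the members, 2 of 10, against 33.0% of all genes. The median log2 fold change of the members was -0.24 where that of all genes was 0.02, and the median size regardless of sign was 0.40 against 0.69. On CPM, the libraries of the 2 groups did not overlap for 6 of 10 members, against 84.3% of all genes. Being called or not overlapping was therefore no more common among these regulators than among genes at large.

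**Figure D1:**
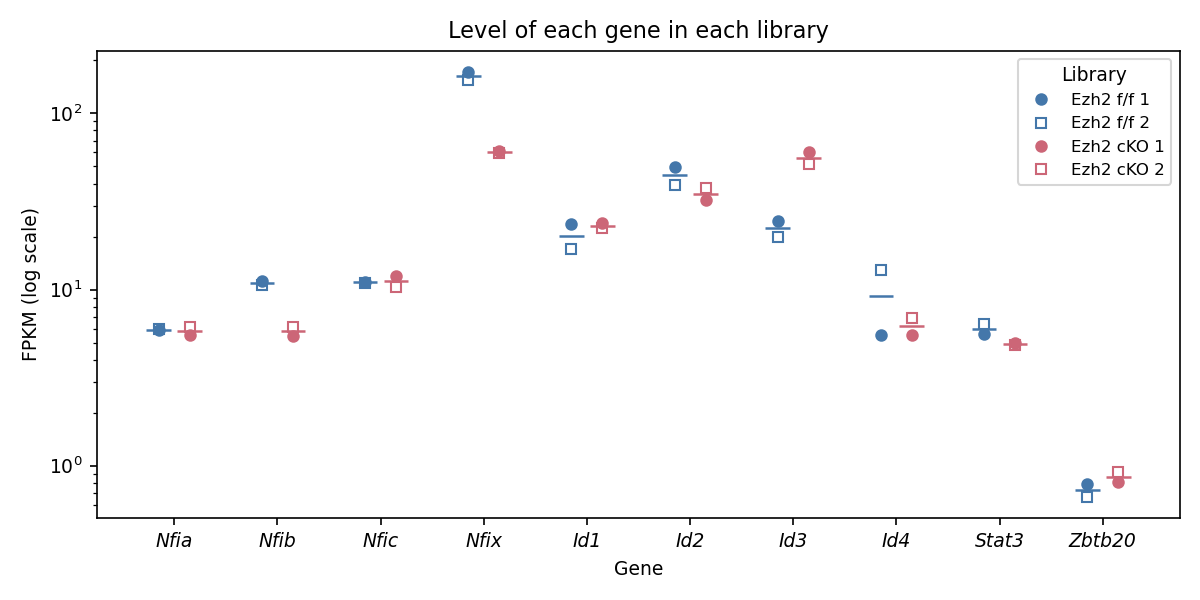
Level of the 10 genes in FPKM on a log axis, with a point for each library (circles, replicate 1, and squares, replicate 2) and a bar for the mean of each group. The Ezh2 f/f points of Nfix and Nfib lie above those of Ezh2 cKO, those of Id3 lie below, and the Ezh2 f/f points of Id4 lie far apart at 5.52 and 13.0 FPKM.

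Nfix was the highest expressed of the members and the one that fell most. The gene (ENSMUSG00000001911, chromosome 8, 85426505 to 85526973 on the minus strand as deposited) drew 22139 and 18574 counts from the controls (Ezh2 f/f) and 7788 and 7355 counts from Ezh2 cKO. This came to 172 and 155 FPKM in the controls and 61.1 and 60.0 FPKM in Ezh2 cKO. Both Ezh2 f/f libraries were thus well above both Ezh2 cKO libraries, with means of 163.6 ± 11.7 and 60.6 ± 0.808 FPKM (SD, n = 2). The log2 fold change was -1.52 (SE 0.08, 95% interval -1.69 to -1.35, edgeR adjusted p = 1.59e-09), or 0.350 of the control level. Among all genes tested, 6.16% had a log2 fold change this low or lower. By mean FPKM, Nfix went from rank 243 of 29224 genes in Ezh2 f/f to rank 878 in Ezh2 cKO.

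Nfib, which acts with Nfia at the onset of gliogenesis, also fell. It lies on chromosome 4 (ENSMUSG00000008575, 82208410 to 82623987, minus strand) and drew 2926 and 2581 counts from the controls against 1407 and 1533 counts in Ezh2 cKO. The levels were 11.2 and 10.6 FPKM against 5.43 and 6.15 FPKM, with no overlap. The means were 10.9 ± 0.396 and 5.79 ± 0.507 FPKM (SD, n = 2), and the log2 fold change was -0.996 (SE 0.09, 95% interval -1.20 to -0.79, edgeR adjusted p = 4.73e-07). Of all genes, 14.4% fell this far or further.

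Nfia, the member of the family best known for starting gliogenesis, gave no call. This gene (ENSMUSG00000028565, chromosome 4, 97660971 to 98007111, plus strand) stood at 5.86 and 5.94 FPKM in Ezh2 f/f and at 5.55 and 6.13 FPKM in Ezh2 cKO, so that the groups overlapped in FPKM. With the TMM factors in CPM they did not overlap, at 65.5 and 67.0 CPM in the controls and 59.4 and 64.2 CPM in Ezh2 cKO. The log2 fold change of -0.10 had a 95% interval of -0.30 to 0.10 (edgeR adjusted p = 0.354). Nfic (ENSMUSG00000055053, chromosome 10, 81232020 to 81291469, minus strand), which is used widely outside the brain, was at 11.1 and 10.9 FPKM in Ezh2 f/f and at 11.99 and 10.4 FPKM in Ezh2 cKO. Its log2 fold change was -0.05 (95% interval -0.27 to 0.17, edgeR adjusted p = 0.662), and its sign was positive with upper-quartile factors (0.0216) and with library size alone (0.0298) but negative with DESeq2 size factors (-0.07). The intervals of both genes lay wholly above those of Nfix and Nfib.

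The summed level of the NFI family was lower, chiefly through Nfix, at a mean of 163.6 FPKM in the controls and 60.6 FPKM in Ezh2 cKO. Nfic (11.0 and 11.2 FPKM) and Nfia (5.90 and 5.84 FPKM) kept their levels. Their larger shares below therefore reflect a smaller sum. Summed over the 4 genes, the level was 191 ± 12.3 FPKM for the controls and 83.4 ± 1.01 FPKM for the knockouts (SD, n = 2). Nfix supplied 85.9% and 85.0% of the sum in the controls and 72.7% and 72.6% in Ezh2 cKO. The share of Nfic went from 5.74% ± 0.279 to 13.4% ± 1.18 and that of Nfia from 3.09% ± 0.227 to 7.01% ± 0.573, while Nfib took 5.69% ± 0.158 and 6.94% ± 0.693 (SD, n = 2). For each unit of Nfia FPKM there were 29.3 and 26.1 units of Nfix in the controls and 11.0 and 9.79 in Ezh2 cKO. The ratio of Nfib to Nfia was 1.90 and 1.78 in the controls against 0.978 and 1.00 in Ezh2 cKO. None of these ratios overlapped between groups, but 2 libraries against 2 cannot give an exact permutation p below 0.333, and no test was made. The progenitor and cycling markers fell in the same libraries, and of the neuronal markers Tubb3 fell by 0.71 on the log2 scale (edgeR adjusted p = 2.29e-07) while Rbfox3 (0.58), Snap25 (1.79), Syt1 (2.61), Map2 (0.53) and Slc17a7 (3.44) rose. Their part in the fall of Nfix and Nfib was not tested.

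**Figure D2:**
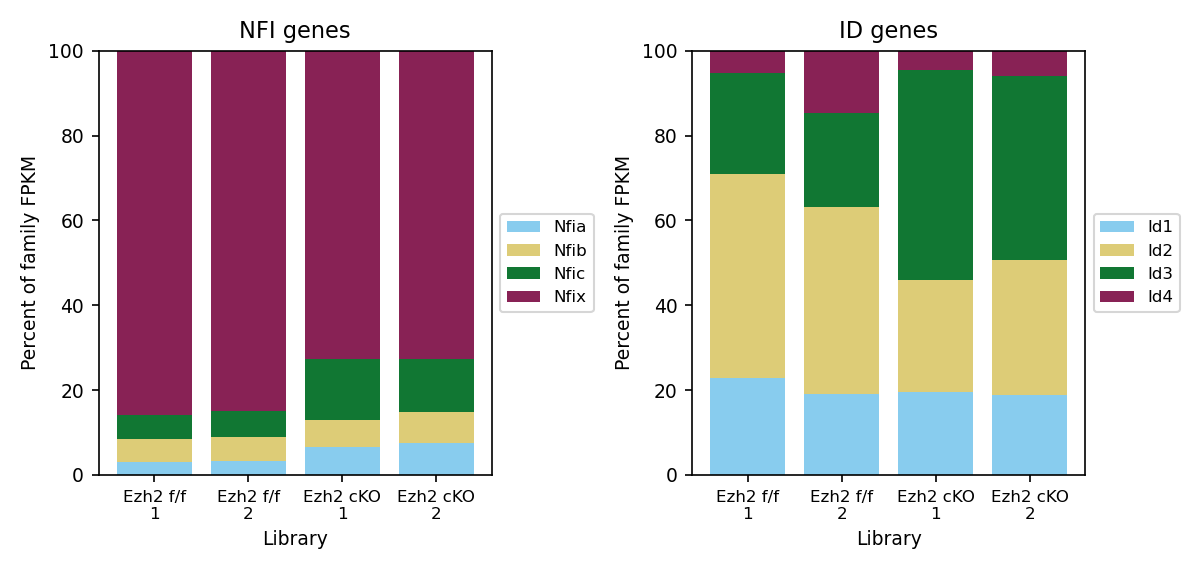
Percent of the summed FPKM of the NFI genes (left) and of the ID genes (right) that each member supplied in each of the 4 libraries, as stacked bars that reach 100%. Nfix filled 85.0% to 85.9% of the NFI bar in the controls and 72.6% to 72.7% in Ezh2 cKO, and Id3 filled 22.3% to 23.8% and 43.5% to 49.5% of the ID bar.

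Among the ID genes, Id3 rose and Id2 fell. Id3 (ENSMUSG00000007872, chromosome 4, 135870808 to 135873066, plus strand), which in brain marks astrocytes and vessels, drew 771 and 580 counts from the controls and 1873 and 1543 counts from Ezh2 cKO. It stood at 24.6 and 19.9 FPKM in the controls and 60.3 and 51.7 FPKM in Ezh2 cKO. Both Ezh2 cKO libraries lay above both controls, with means of 22.2 ± 3.30 and 56.0 ± 6.14 FPKM (SD, n = 2). The log2 fold change was 1.25 (SE 0.12, 95% interval 0.99 to 1.51, edgeR adjusted p = 4.99e-07), or 2.38 times the control level. Of all genes tested, 84.8% had a lower log2 fold change. Its rank by mean FPKM went from 2578 to 977. The astrocyte, microglial, oligodendrocyte precursor, oligodendrocyte and mural marker sums given above were also higher in the Ezh2 cKO libraries, while the endothelial sum overlapped between groups. Of the mural sum, Rgs5 rose by 1.47 and Pdgfrb fell by 0.55 on the log2 scale, and the part of all these markers in the rise of Id3 was not tested.

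Id2 (ENSMUSG00000020644, chromosome 12, 25143798 to 25147139, minus strand), which is also used by cortical neurons, stood at 49.7 and 39.3 FPKM in Ezh2 f/f and at 32.2 and 37.6 FPKM in Ezh2 cKO. The lowest control was just above the highest Ezh2 cKO library. The log2 fold change was -0.43 (SE 0.12, 95% interval -0.68 to -0.19, edgeR adjusted p = 0.00426), or 0.740 of the control level. Without Ezh2 cKO replicate 1 it was -0.34 and no longer passed (edgeR adjusted p = 0.0922, against 5.51e-07 to 0.174 across the 14 alternatives).

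Id1 (ENSMUSG00000042745, chromosome 2, 152578171 to 152579330, plus strand), the classical BMP target, gave 478 and 320 counts in the controls and 477 and 434 counts in Ezh2 cKO. The levels were 23.5 and 17.0 FPKM in the controls and 23.7 and 22.4 FPKM in Ezh2 cKO, so that the groups overlapped. Its log2 fold change was 0.11 (95% interval -0.21 to 0.42, edgeR adjusted p = 0.538), which did not pass the threshold. Without Ezh2 f/f replicate 1 it was 0.35 and passed (edgeR adjusted p = 0.0362), and without Ezh2 f/f replicate 2 it was -0.12, so that its direction depended on which control library was used. Over the 14 alternatives the adjusted p ran from 0.0362 to 0.850.

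Id4 (ENSMUSG00000021379, chromosome 13, 48414704 to 48419502, plus strand), known from cortical progenitors, was called lower with controls that stood far apart. Its counts were 372 and 813 in the controls and 369 and 445 counts in Ezh2 cKO. The level of 5.52 FPKM in the first control was as low as the 5.53 FPKM of the first Ezh2 cKO library, and 13.0 FPKM in the second control was above the 6.93 FPKM of the second Ezh2 cKO library. The controls differed from each other 2.37-fold, a gap larger than that of 99.6% of the 12918 genes compared in this way. The log2 fold change was -0.65 (SE 0.27, 95% interval -1.23 to -0.08, edgeR adjusted p = 0.0431). Without Ezh2 f/f replicate 2 it was 0.08 (edgeR adjusted p = 0.653), and without Ezh2 f/f replicate 1 it was -1.15 (edgeR adjusted p = 7.46e-17). It was also lost without Ezh2 cKO replicate 1 (-0.51, edgeR adjusted p = 0.322) and without Ezh2 cKO replicate 2 (-0.80, edgeR adjusted p = 0.136), and over 14 alternatives the adjusted p ran from 7.46e-17 to 0.653.

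In sum of FPKM, the ID genes reached 103 and 89.1 in the controls and 122 and 119 in Ezh2 cKO. Id2 led in Ezh2 f/f with 46.1% ± 2.85 of the sum, and Id3 led in Ezh2 cKO with 46.5% ± 4.25 (SD, n = 2). The share of Id1 was 20.9% ± 2.65 and 19.2% ± 0.407, and that of Id4 was 5.34% and 14.6% in the controls against 4.54% and 5.84% in Ezh2 cKO. The ratio of Id3 to Id2 was 0.494 and 0.506 in the controls and 1.87 and 1.37 in Ezh2 cKO, and that of Id3 to Id1 was 1.04 and 1.17 against 2.54 and 2.30. Neither ratio overlapped between groups.

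Stat3 (ENSMUSG00000004040, chromosome 11, 100775924 to 100830366, minus strand) fell by a small amount. Its levels were 5.59 and 6.38 FPKM in Ezh2 f/f and 4.95 and 4.85 FPKM in Ezh2 cKO, with no overlap. The log2 fold change was -0.37 (SE 0.10, 95% interval -0.59 to -0.16, edgeR adjusted p = 0.00435), or 0.773 of the control level. Without Ezh2 cKO replicate 2 it was -0.34 and did not pass (edgeR adjusted p = 0.0697, against 0.000202 to 0.111 across the 14 alternatives). Zbtb20 (ENSMUSG00000022708, chromosome 16, 42696244 to 43462965, plus strand) had the lowest level per length of the members, 0.784 and 0.668 FPKM in Ezh2 f/f and 0.806 and 0.927 FPKM in Ezh2 cKO. Its log2 fold change of 0.17 had a 95% interval of -0.11 to 0.45 (edgeR adjusted p = 0.259). Its mean rank was 13527 in the controls and 13528 in Ezh2 cKO.

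**Figure D3:**
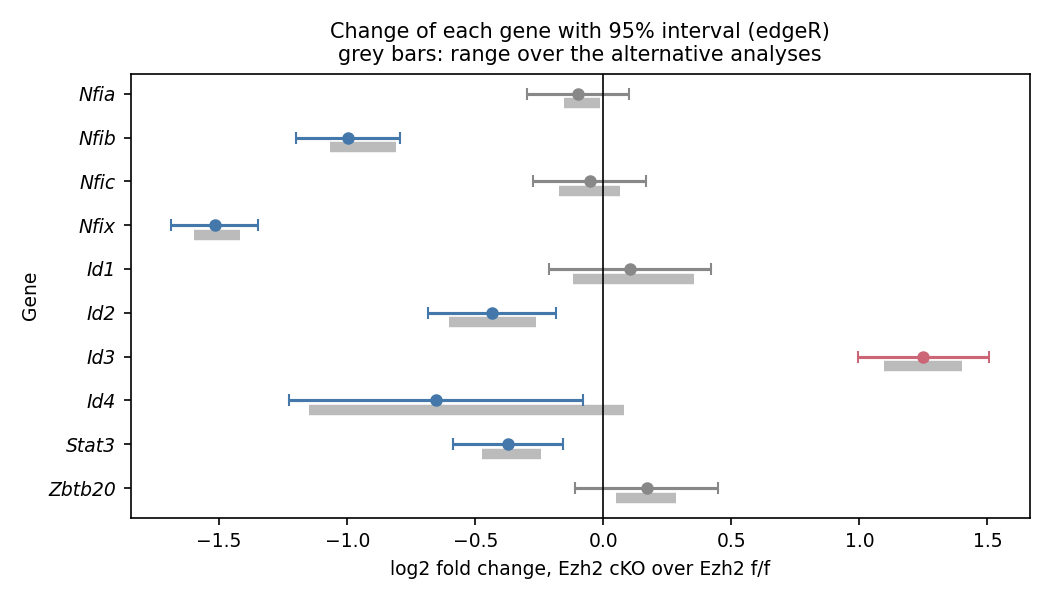
Log2 fold change of each gene, Ezh2 cKO over Ezh2 f/f, with its 95% interval from edgeR, in blue where lower, red where higher and grey where the threshold was not passed. Grey bars span the values over the alternative analyses, from -1.60 to -1.42 for Nfix, from 1.10 to 1.40 for Id3 and from -1.15 to 0.08 for Id4.

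Ordered by FPKM, Nfix stood above every other member in both Ezh2 f/f libraries and Id2 came next, apart from the rest. Id3 and Id1 followed without a gap between their libraries. Nfic, Nfib, Id4, Stat3 and Nfia then formed a run in which neighbours overlapped, and Zbtb20 was lowest. In Ezh2 cKO, Id3 reached the level of Nfix, and the libraries of these 2 genes overlapped (60.3 and 51.7 against 61.1 and 60.0 FPKM). Id2, Id1 and Nfic came next, each apart from its neighbours, then Id4, Nfia and Nfib, which overlapped, and then Stat3 and Zbtb20.

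The second question was how the partners and signals of these regulators stood in the same comparison. Of 22 genes of the BMP and SMAD pathway, which acts upstream of the ID genes, 7 rose, 8 fell and 7 did not pass, with a median log2 fold change of -0.06. The share called, 68.2%, was close to the 68.4% of all genes, and the rises numbered 3 or 4 in 6 of 14 alternatives. Among ligands, Bmp4 rose from 0.863 and 1.28 FPKM to 4.93 and 4.56 FPKM (log2 fold change 2.06, edgeR adjusted p = 2.41e-06). Bmp2, scarce at 0.346 to 0.944 FPKM, rose (0.85). Bmp5 was called higher (1.97) on very few counts, 6 and 1 in the controls and 18 and 12 in Ezh2 cKO. Bmp6 fell by 0.95 on the log2 scale, and Bmp7 did not pass at -0.10. Of the type I receptors, Bmpr1a and Bmpr1b stood at 0.07 and -0.04 and did not pass, and Acvr1 fell by 0.51. The type II receptor Bmpr2 rose by 0.38, while the activin type II receptors Acvr2a and Acvr2b fell by 0.90 and 1.45. Of the SMADs that carry the BMP signal, Smad5 (-1.15, edgeR adjusted p = 1.32e-07) and Smad1 (-0.72) fell, and Smad9, which was scarce at 0.234 to 0.938 FPKM, rose (1.33). Chrdl1, a secreted BMP antagonist made by astrocytes, rose from 0.169 and 0.182 FPKM to 1.44 and 1.52 FPKM (log2 fold change 2.99, edgeR adjusted p = 9.77e-08). Of the other secreted antagonists listed, Grem1, scarce at 0.167 to 0.881 FPKM, fell by 1.59 (edgeR adjusted p = 0.00185). Nog (-0.14) and Chrd (-0.07) did not pass. The inhibitory Smad6 and Smad7, known as targets of the pathway, were at 0.26 and 0.00 and did not pass.

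For the IL-6 family and JAK-STAT pathway, 17 of 19 genes had enough counts to test, and 6 rose, 6 fell and 5 did not pass, with a median of 0.11. The share called was 70.6%, close to that of all genes, and the rises numbered 3 in 4 of 14 alternatives, among them the one without Ezh2 cKO replicate 2. The cytokine genes Lif and Cntf were too low to test. The shared receptor chain Il6st rose from 3.98 and 4.35 FPKM to 6.37 and 6.60 FPKM (log2 fold change 0.55, edgeR adjusted p = 0.000116), and of the kinase genes Jak1 rose by 0.72 while Jak2 and Tyk2 fell by 0.59 and 0.53. Of the partner receptors, Osmr, scarce at 0.208 to 0.465 FPKM, rose by 0.68 (edgeR adjusted p = 0.0281). Lifr (-0.04), Cntfr (0.12) and Il6ra (-0.51, edgeR adjusted p = 0.109) did not pass. Socs3, the feedback inhibitor that STAT3 induces, fell from 4.94 and 4.08 FPKM to 1.497 and 1.203 FPKM (log2 fold change -1.82, edgeR adjusted p = 1.91e-06). Pias3, an inhibitor of STAT3, fell by 0.94 and the phosphatase gene Ptpn11 by 0.69.

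Of the bHLH genes whose proteins meet ID proteins, or that ID proteins act on, 13 of 14 were tested, and 4 rose, 6 fell and 3 did not pass, with a median of 0.04. The share called was 76.9%, against 68.4% of all genes, and Neurog1 was too low to test. Tcf3, which encodes the E protein E2A, fell by 1.31 on the log2 scale (edgeR adjusted p = 1.10e-07), and its relative Tcf12 fell by 0.53, while Tcf4 stood at 0.26 (edgeR adjusted p = 0.0728). The neuronal factors Neurod2 and Neurod6 fell by 1.74 and 1.13, while Neurod1 stood at 0.04 and did not pass. In the other direction, Olig1 went from 19.4 and 18.4 FPKM to 85.1 and 71.7 FPKM (log2 fold change 1.97, edgeR adjusted p = 2.92e-09), Olig2 rose by 0.61 and the Notch target Hes5 rose by 0.72.

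Effector genes of astrocytes, many of them known targets of NFI or STAT3, mostly rose, 13 of 15, with 1 fall, 1 not called and a median of 1.15, where 34.7% of all genes were called higher. This list was written with earlier results of these data known, so its counts are a description and not a test. It holds all 6 astrocyte markers given above, and of its other 9 genes 8 rose and 1 fell. Gfap, the astrocyte filament gene, went from 9.55 and 8.81 FPKM to 145 and 120 FPKM (log2 fold change 3.77, edgeR adjusted p = 2.51e-11). Aqp4, the water channel of endfeet, rose by 4.42 and S100b by 4.92. Slc1a3, which encodes the GLAST protein used for the sort, rose by 1.59. Apcdd1, a gene known to be controlled by NFIA, fell by 0.50 (edgeR adjusted p = 0.000231), whereas Mmd2 and Zcchc24, other genes known to follow NFIA, rose by 1.15 and 0.66. Aldh1l1, whose promoter drives the Cre, was at 16.2 and 17.0 FPKM in Ezh2 f/f and 16.4 and 15.3 FPKM in Ezh2 cKO and did not pass (-0.15, edgeR adjusted p = 0.175). The 12 other gliogenic regulators gave 3 rises, 7 falls and 2 genes not called, with a median of -0.50, and the rises numbered 1 in 7 of 14 alternatives. The share called was 83.3%, against 68.4% of all genes, of which 34.7% were called higher and 33.6% lower. Sox8 rose by 1.13, Nr2f2 fell by 1.36, Nr2f1 by 0.72 and Notch1 by 0.96, and Sox9, a main regulator of the glial fate, stood at -0.06 (edgeR adjusted p = 0.758).

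**Figure D4:**
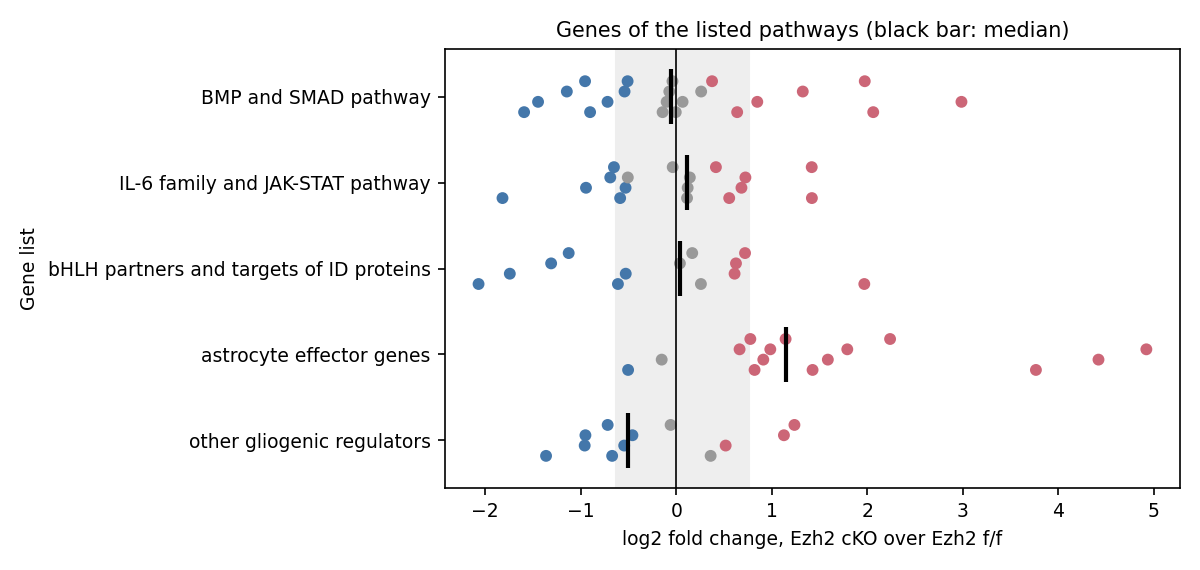
Log2 fold change, Ezh2 cKO over Ezh2 f/f, of every tested gene of the 5 lists, in red where higher, blue where lower and grey where not called, with a black bar at the median of each list. The grey band marks the middle 50% of all 16793 genes tested (-0.64 to 0.76). The median of the astrocyte effector genes (1.15) is the only one of the 5 outside it. All 5 lists were written with earlier results of these data known.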

How the data were processed

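RNA-seq was analysed from 4 libraries. The authors deposited raw read counts per gene and FPKM values per gene. Per the labels, the submitters' processing notes name Bowtie2 2.2.3, TopHat2 2.0.12, HTSeq 0.6.0 and mm9, and strand use is not given in the sources used here. Within a gene, FPKM was an exact multiple of count over library total (largest relative departure 1.35e-13). Columns holding the authors' own fold changes and p-values were not used. Gene positions are printed as deposited. They differ from GRCm38 for all 10 members, and their build was not settled. Exons that overlap other genes made up at most 4.44% of a member's exonic bases (Id4).

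Counts were fitted with edgeR 4.0.16 (filterByExpr, TMM, quasi-likelihood test) under R 4.3.3, and 16793 of 29224 genes were tested, with a common biological coefficient of variation of 0.0953. SE was the size of the log2 fold change over the root of F. DESeq2 1.42.0, limma 3.58.1 on log2(FPKM + 1), other scalings, filters and left-out libraries were alternatives. The scripts were tested on simulated data. Counting error alone did not account for the gap between the libraries of a group (chi-square per degree of freedom, Ezh2 f/f 8.92 and Ezh2 cKO 5.68), so all 4 were kept as separate samples. Promoter windows came from RefSeq. A planned comparison of protein sequences was not run. All members are named, with Ezh2, up to 3 genes of each list per direction by smallest p, any ligand, receptor, partner or inhibitor a sentence turns on, and the defining markers. Members and lists were chosen with earlier results of these data known.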

Additional observations from a re-analysis of the deposited data

How the results depend on the processing

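Nfix, Nfib and Id3 kept their direction and passed the threshold in 14 of 14 alternatives, with log2 fold changes of -1.60 to -1.42, -1.07 to -0.81 and 1.10 to 1.40. Nfia (14 alternatives) and Zbtb20 (12) passed in none, and the 2 limma fits with a filter on FPKM gave no value for Zbtb20. With limma, the members called lower numbered 2 with a pseudocount of 1, 2 with 0.1 and 2 with no filter on FPKM, against 5 in edgeR. In those 3 fits Id2 gave -0.34, -0.34 and -0.34 (limma adjusted p = 0.0534, 0.0602 and 0.174), Stat3 gave -0.24, -0.28 and -0.24 (limma adjusted p = 0.0683, 0.0657 and 0.111), Id4 gave -0.41, -0.45 and -0.41, and Nfic gave 0.0241, 0.0257 and 0.0241. Id4 also missed the threshold at -0.67 in DESeq2 (adjusted p = 0.339), -0.58 with upper-quartile factors, -0.57 with library size alone, -0.65 with no filter on low counts and -0.62 with a mean count of at least 50. Nfic was 0.0216 with upper-quartile factors and 0.0298 with library size alone. Leaving out 1 library at a time gave 1 to 2 members higher and 3 to 5 lower, with ranges of -0.17 to 0.0634 for Nfic, -0.12 to 0.35 for Id1, -0.60 to -0.26 for Id2, -1.15 to 0.0818 for Id4 and -0.47 to -0.28 for Stat3. For these changes the cause was not tested.

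With the replicate number as a block, edgeR called 5795 genes higher and 5599 lower, against 5831 and 5650 without it, no call on a member changed, and Id4 stood at -0.56. Deviations of same-numbered samples had r = 0.218 over 12918 genes, and with 2 pairs the numbers do not establish a pairing. Of 140 counts over the lists and alternatives, 121 stayed within 1.5 times the count reported. Among the rest, the BMP and SMAD pathway gave 3 to 4 genes higher and 5 lower, the IL-6 family and JAK-STAT pathway 3 higher, and the other gliogenic regulators 1 higher. Depth did not limit the members, the lowest of which had 320 counts, whereas 2 libraries per group limited every estimate of spread.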

Other observations

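For each member, the tested gene with the most similar course over the 4 libraries was found by the Euclidean distance between log2 CPM values centred on their mean, over 16792 other genes. This is a description over 4 points in 2 groups, and many genes have close neighbours in it. Polr2a, the gene of the large subunit of RNA polymerase II, was nearest to Nfix (distance 0.0207), and Ing5 was nearest to Nfib (0.0219). Sash3, an adaptor gene of lymphoid cells, was nearest to Id3 (0.0570). Nfia was nearest to Frg2f1 (0.0175), Nfic to Smox (0.0217), Id1 to Vamp5 (0.05003), Id2 to Polh (0.0358), Stat3 to Rrp36 (0.0267) and Zbtb20 to Prc1 (0.0279). Id4 had no near neighbour on this scale, the nearest being Insyn2b at 0.189.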
